A study of Mus musculus with 8 samples.

Results

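The miR-29 family was followed in the RISC of mouse brains as 5 mature miRNAs, mmu-miR-29a-3p, mmu-miR-29b-3p, mmu-miR-29c-3p, mmu-miR-29a-5p and mmu-miR-29c-5p (written without the prefix mmu from here on). Its members were found by name among 895 mouse miRNA names, and every read carrying one of the 5 names was kept whatever its level, which gave 874 of the 47204 distinct reads. miR-29a-3p was made of 389 distinct reads, miR-29b-3p of 233, miR-29c-3p of 173, miR-29a-5p of 33 and miR-29c-5p of 46. The scarce 5p strands of the 2 genes for miR-29b (12 and 27 distinct reads) are given beside them.

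RISC-bound small RNAs (R-sRNAs) came from cortex and hippocampus combined. Both groups carried the 5XFAD transgene, in which the neuronal Thy1 promoter drives mutant human APP and presenilin 1, so neither group is free of amyloid pathology. Mice of one group kept 1 copy of Rubicon, a gene that restrains autophagy (5XFADtg Rubicon+/-, het, n = 4 mice), and mice of the other group had none (5XFADtg Rubicon-/-, ko, n = 4 mice). They were females on a mixed C57BL/6J and SJL background. Their age is 6 months in the description of this comparison and 6 or 8 months in the methods, and the labels give none. The labels name 4 het mice, whereas that description counts 3 and does not say which, and all 4 were used here. Argonaute proteins, which hold the guide strand in the RISC, were captured with a GW182 peptide before sequencing.

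miRNAs of this family are cut from hairpins by Drosha and Dicer, and 1 of the 2 arms is usually kept in Argonaute as the guide while the other, the passenger strand, is discarded. The guide finds mRNAs mainly by its seed near the 5′ end. The miR-29 guides of the 3p arm are known for repressing collagens and other matrix genes, DNA methyltransferases and pro-apoptotic BH3-only genes, they rise as neurons mature, and they have been linked to Bace1, the protease that starts the cleavage of APP to amyloid-β. Levels are in CPM, reads per 1000000 reads of the library, and a sum over all reads of a name is called its level.

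The mature sequences below are shown because they separate what the family shares from what tells its members apart. They are RefSeq sequences (GRCm38.p6), 5′ to 3′, with the seed (positions 2 to 8) in capitals, and all 7 names matched an entry.
miR-29a-3p: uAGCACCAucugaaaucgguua
miR-29b-3p: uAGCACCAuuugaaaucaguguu
miR-29c-3p: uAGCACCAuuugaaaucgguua
miR-29a-5p: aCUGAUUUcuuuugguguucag
miR-29c-5p: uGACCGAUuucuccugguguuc
miR-29b-1-5p: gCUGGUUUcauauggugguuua
miR-29b-2-5p: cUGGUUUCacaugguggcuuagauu

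The 3 guides of the 3p arm had the same seed. Counted from 1 at the 5′ end, miR-29c-3p differed from miR-29a-3p only by C10U, and it differed from miR-29b-3p by A18G, G21U and U22A. The passenger strands had a different seed each. The genes lie in 2 clusters. Mir29a (chr6:31062660-31062747) and Mir29b-1 (chr6:31063023-31063093) are on the minus strand with 275 bases between them, and Mir29b-1 lies in an exon of the lincRNA Gm27019 (GENCODE M21). Mir29b-2 (chr1:195037040-195037120) and Mir29c (chr1:195037547-195037634) are on the plus strand with 426 bases between them, in exons of the non-coding transcript A330023F24Rik, and they also overlap exons of Cd46 on the opposite strand. Since the guides from Mir29b-1 and Mir29b-2 are identical, the level of miR-29b-3p is the sum of both genes.

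Since miR-29a-3p and miR-29c-3p differ by 1 base, names and read sequences were compared. Of the CPM of each guide, 99.7% (miR-29a-3p), 99.9% (miR-29b-3p) and 99.8% (miR-29c-3p) was in reads with its own bases at positions 10 and 18. No named read held the bases of another guide there, and some reads without a miRNA name held these bases too. Positions 21 and 22 were not covered, since many reads end before position 22. The authors named the reads by BLAST of these same sequences. The agreement is thus largely built in and cannot test the naming. The most abundant miR-29a-3p read (11144 CPM) would become the most abundant miR-29c-3p read (3408 CPM) by C10U. The same kind of change elsewhere in that read, at C4U, C6U, C7U and C17U, was found at 7.03 to 10.2 CPM. Single-base misreads of miR-29a-3p at that rate were thus far below the level of miR-29c-3p.

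Library depth was 509839 to 2634451 reads in het and 1010177 to 19878097 reads in ko, so that 3 reads, the smallest level read as present, were worth 0.151 to 5.79 CPM. The 5 members took 26428 to 1379841 reads per library. Neural miRNAs marked the tissue as brain, since miR-124-3p, miR-9-5p and miR-128-3p summed to 145125 to 247446 CPM, while 4 detected miRNAs of liver, muscle and skin summed to 148 to 386 CPM and the heart miRNA miR-208a-3p was not among the names. The deletion of Rubicon is in a protein-coding gene and could not be checked in this table. All replicates were different mice.

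miR-29a-3p was the most abundant member. It measured 29200, 27393, 33438 and 28392 CPM in het replicates 1 to 4 and 18957, 37449, 16818 and 19358 CPM in ko replicates 1 to 4. The het libraries lay close together, whereas ko replicate 2 was the highest of all 8 and the other 3 ko libraries were below every het library. Averaged over the 8 libraries it ranked 8 among all miRNA names, with a rank of 5 to 13 in single libraries.

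miR-29b-3p followed at 12334, 17109, 18675 and 18678 CPM in het and 7447, 21304, 6596 and 10215 CPM in ko. Again ko replicate 2 was the highest library and no other ko library reached the het range. miR-29c-3p was the lowest guide, at 8319, 7630, 7065 and 11064 CPM in het and 3366, 9759, 4153 and 8355 CPM in ko. Here ko replicates 1 and 3 were below every het library and the other ko libraries lay within the range of het. The guides ranked 15 and 33 among all names. Together the 3 guides made up 4.79% of a library on average, from 2.76% to 6.85%.

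The passenger strands were scarce. miR-29a-5p measured 761, 439, 350 and 726 CPM in het and 243, 342, 299 and 663 CPM in ko, and 3 of the 4 ko libraries fell short of the het range. miR-29c-5p measured 407, 252, 409 and 398 CPM in het and 351, 429, 353 and 442 CPM in ko, where het replicate 2 was the lowest of all. Of the strands left over from miR-29b, miR-29b-2-5p had 73.0 ± 26.5 CPM and miR-29b-1-5p had 60.0 ± 19.0 CPM (SD, n = 8). Reads of both miR-29b hairpins were therefore present.

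**Figure D1:**
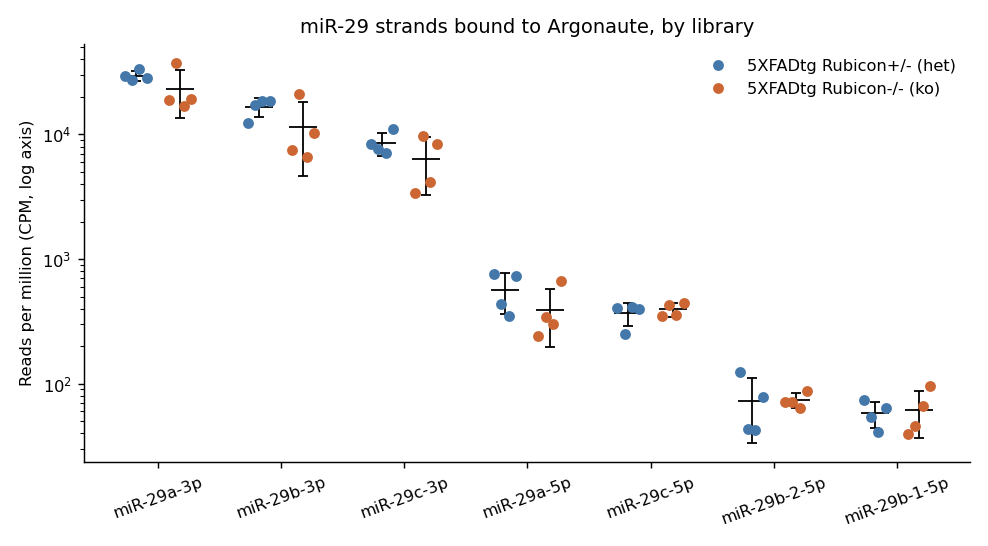
Levels of the 7 miR-29 strands in CPM on a log axis, 1 point per library (replicates 1 to 4 from left to right) with the mean and SD of 4 het (blue) and 4 ko (orange) libraries. The 3 guides of the 3p arm lie between 3366 and 37449 CPM and the 5p strands between 39.7 and 761 CPM, and ko replicate 2 is the highest ko library for each guide.

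Whether the paralogs keep a fixed proportion was asked from ratios within each library, which do not depend on the scaling of that library. miR-29a-3p was above miR-29b-3p and miR-29b-3p above miR-29c-3p in all 8 libraries. The log2 ratio of miR-29a-3p to miR-29c-3p was 1.81, 1.84, 2.24 and 1.36 in het and 2.49, 1.94, 2.02 and 1.21 in ko, a mean of 1.87 ± 0.42 (SD, n = 8) or 3.64-fold. The ratio of miR-29a-3p to miR-29b-3p was 0.98 ± 0.30 on the log2 scale (1.97-fold), and that of miR-29b-3p to miR-29c-3p was 0.89 ± 0.38 (1.85-fold). An exact two-sided sign-flip test gave p = 0.00781 for each, which is the smallest p that 8 libraries allow (adjusted p = 0.00781 over 5 ratios). The order of the guides was thus the same in each library, but the size of the step from miR-29a-3p to miR-29c-3p ranged from 2.32-fold to 5.63-fold.

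The arms of a hairpin were further apart than the paralogs. miR-29a-3p exceeded its passenger strand by 5.85 ± 0.68 on the log2 scale (57.7-fold, 29.1-fold to 109-fold), and miR-29c-3p exceeded miR-29c-5p by 4.21 ± 0.57 (18.6-fold, 9.56-fold to 30.1-fold). Both were above 0 in 8 of 8 libraries (exact sign-flip p = 0.00781, adjusted p = 0.00781). Over all reads, the arms were more unequal for miR-29a than for miR-29c in 8 of 8 libraries, by 1.64 ± 0.970 on the log2 scale, in a comparison chosen after the data were seen (exact sign-flip p = 0.00781, adjusted p = 0.00911 over 14 comparisons between paralogs). This rests on counting every read of miR-29c-5p, whose reads begin at several bases. With reads of the main seed of each name alone, the gap was 0.57 ± 0.99, above 0 in 4 of 8 libraries, and did not pass (exact sign-flip p = 0.141, adjusted p = 0.164). The 2 passenger strands themselves had no fixed order, with miR-29a-5p above miR-29c-5p in 4 of 8 libraries, and miR-29b-2-5p was above miR-29b-1-5p in 5 of 8.

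**Figure D2:**
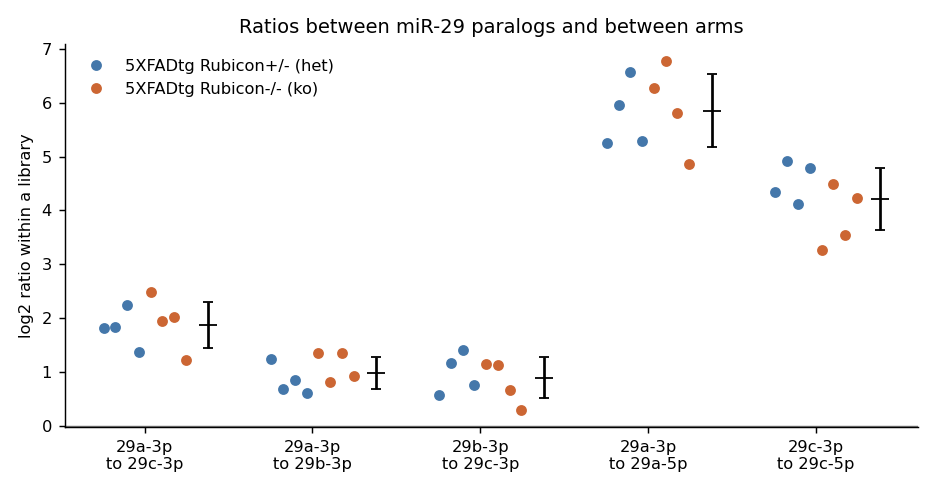
log2 ratios between paralogs and between arms, 1 point per library (het in blue, ko in orange, replicates 1 to 4 from left to right) with the mean and SD over 8 libraries in black. Every point is above 0, the ratios between guides stay at or below 2.49, and those between arms lie between 3.26 and 6.77.

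The reads under each name were then examined, since a guide can end at different bases. The most abundant reads of the 3 guides are shown because the read that led on average over the 8 libraries was in each case 1 nt shorter at the 3′ end than the RefSeq sequence. The seed is in capitals.
miR-29a-3p, 21 nt: uAGCACCAucugaaaucgguu
miR-29b-3p, 22 nt: uAGCACCAuuugaaaucagugu
miR-29c-3p, 21 nt: uAGCACCAuuugaaaucgguu
These reads made up 41.8% (35.3% to 47.4% over libraries), 42.1% (29.2% to 52.5%) and 46.0% (39.2% to 55.2%) of their names, and the full RefSeq sequences 31.3% (24.8% to 36.4%), 37.5% (28.1% to 51.5%) and 33.1% (25.4% to 43.3%). The shorter read led in 8 of 8 libraries for miR-29a-3p and in 7 of 8 for miR-29c-3p, all but het replicate 4. For miR-29b-3p it led in 5 of 8, and the RefSeq sequence led in het replicates 2 and 3 and in ko replicate 1. The next read of each guide was a further 1 nt shorter and held 7.29%, 3.59% and 7.32%. The mean read length was 21.43 ± 0.07 nt for miR-29a-3p, 21.40 ± 0.12 nt for miR-29c-3p and 22.43 ± 0.08 nt for miR-29b-3p (SD, n = 8), whose RefSeq sequence is also 1 nt longer. The difference between miR-29a-3p and miR-29c-3p was 0.0277 nt and did not pass the test (exact sign-flip p = 0.273, adjusted p = 0.281).

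**Figure D3:**
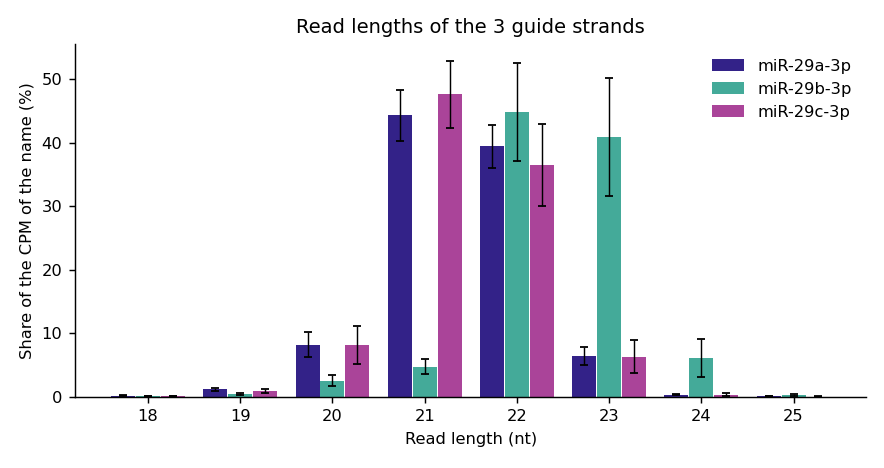
Read lengths of the 3 guides as the share of each name's CPM (bars from 0, mean and SD of 8 libraries). miR-29a-3p and miR-29c-3p are centred on 21 and 22 nt and miR-29b-3p on 22 and 23 nt.

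At the 5′ end, where a shift of 1 base changes the seed, the paralogs differed. The base before the guide is a C in all 4 hairpins, shown here for miR-29a as its most abundant read with that base in capitals.
miR-29a-3p, extended: Cuagcaccaucugaaaucgguu
This read alone had 1366 CPM. Reads that began with this C made up 8.42%, 9.98%, 8.34% and 7.03% of miR-29a-3p in het and 9.12%, 8.24%, 8.60% and 6.39% in ko. For miR-29b-3p the shares were 5.81%, 3.88%, 3.44% and 2.66% in het and 5.23%, 4.54%, 6.07% and 3.17% in ko. For miR-29c-3p they were 0.371%, 0.315%, 0.517% and 0.173% in het and 0.540%, 0.454%, 0.631% and 0.422% in ko. The ranges of miR-29a-3p and miR-29b-3p did not overlap, and miR-29c-3p stayed below both.

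The mean shares were 8.26 ± 1.12%, 4.35 ± 1.26% and 0.428 ± 0.143% (SD, n = 8), so the extended form was 19.3-fold more frequent for miR-29a-3p than for miR-29c-3p. Each of the 3 pairs differed in the same direction in 8 of 8 libraries (exact sign-flip p = 0.00781, adjusted p = 0.00911, chosen after the data were seen). The widest 95% Wilson interval of a share in 1 library was 1.15 percentage points and covers counting error only. The extension moves the 6mer seed (positions 2 to 7) from AGCACC to UAGCAC. The deposited score of a seed is the viability that siRNAs carrying it left in a screen of 3 mouse cell lines, and it is 51.3% for the usual seed and 28.9% for the shifted one.

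**Figure D4:**
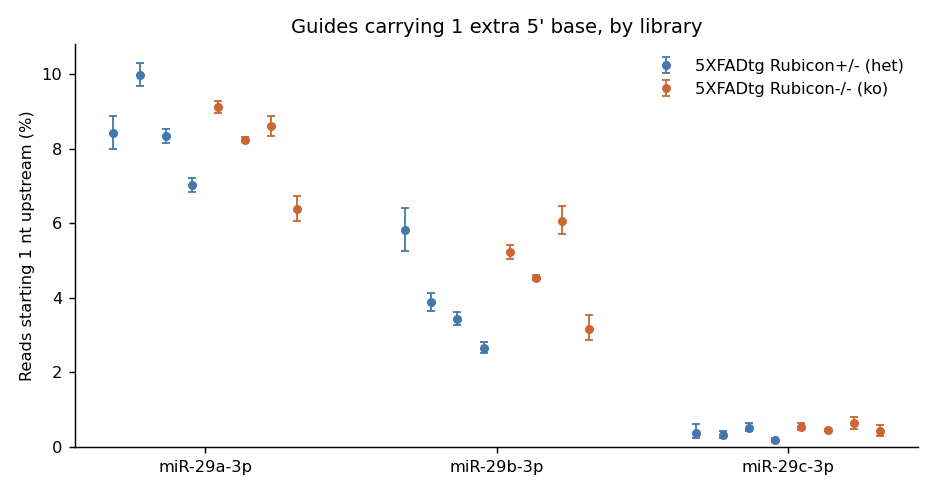
Share of each guide's reads that start 1 nt upstream of the RefSeq 5′ end, in percent, for each library (het in blue, ko in orange, replicates 1 to 4 from left to right) with 95% Wilson intervals. miR-29a-3p spans 6.39% to 9.98%, miR-29b-3p 2.66% to 6.07% and miR-29c-3p 0.173% to 0.631%.

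Reads 1 nt shorter at the 5′ end were rarer, at 1.21 ± 0.271% of miR-29a-3p, 0.735 ± 0.242% of miR-29b-3p and 1.32 ± 0.412% of miR-29c-3p. Bases that are not in the hairpin were added to the 3′ end of some reads. A single A was added to 3.41 ± 0.892% of miR-29a-3p, 3.64 ± 0.957% of miR-29b-3p and 3.79 ± 1.38% of miR-29c-3p (SD, n = 8), and these shares overlapped. An A added to the leading read of miR-29a-3p or miR-29c-3p looks the same as the RefSeq sequence and is not in these shares, so they cannot be set against that of miR-29b-3p. A single added U was found on 1.58 ± 0.147%, 0.0401 ± 0.0199% and 1.78 ± 0.364%. Nor can the low value of miR-29b-3p be set against the others, because the base that follows the leading read is A in miR-29a-3p and miR-29c-3p but U in miR-29b-3p, where a U added at that place looks the same as the RefSeq sequence. Tails of 1 to 3 bases of A or U were on 5.87 ± 1.09% of miR-29a-3p and 6.49 ± 1.32% of miR-29c-3p, lower for miR-29a-3p in 8 of 8 libraries (exact sign-flip p = 0.00781, adjusted p = 0.00911). After the guide the Mir29a hairpin goes on with UA and the Mir29c hairpin with UG, so a tail of UA counts as added for miR-29c-3p only. The leading tailed reads ended in a single A, in capitals here.
miR-29a-3p, tailed: uagcaccaucugaaaucgguuaA
miR-29b-3p, tailed: uagcaccauuugaaaucaguguuA
miR-29c-3p, tailed: uagcaccauuugaaaucgguuaA
Their levels were 649, 293 and 242 CPM.

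The passenger strands differed in the precision of their 5′ end. miR-29a-5p began at 1 base in 97.7 ± 0.815% of its reads, and its leading read was 23 nt long, 1 nt more than the RefSeq sequence, with 40.0% of the name. miR-29c-5p had 3 starts, which held 50.8 ± 4.87%, 32.1 ± 5.38% and 16.3 ± 2.52% of its reads (SD, n = 8). The leading read of each start is printed to show that each has its own seed, in capitals.
miR-29c-5p, start 1: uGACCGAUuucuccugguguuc
miR-29c-5p, start 2: gACCGAUUucuccugguguu
miR-29c-5p, start 3: aCCGAUUUcuccugguguucaga
The 6mer seed is GACCGA at start 1 (viability score 55.2%). It is ACCGAU at start 2 (63.2%) and becomes CCGAUU at start 3 (77.2%). The share at the main start was lower for miR-29c-5p than for miR-29a-5p in 8 of 8 libraries (exact sign-flip p = 0.00781, adjusted p = 0.00911). Tails made only of A or U, at most 3 bases long, were on 1.15% to 2.68% of miR-29a-5p and 8.06% to 16.6% of miR-29c-5p over the 8 libraries, a difference that was not tested. An added base that matches the hairpin is not counted. Since the leading reads of the 2 strands end at different bases, these shares cannot be set against each other. For comparison, reads outside the main seed had a median share of 3.32% over 463 miRNA names with a mean of at least 10 CPM. From mean levels, miR-29c-5p had 49.0%, and 7 names were higher. miR-29a-3p had 10.5%, miR-29b-3p 5.84%, miR-29c-3p 2.76% and miR-29a-5p 2.09%.

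Through the shared seed the family was one of the largest contributors to the RISC. Reads with the 6mer seed AGCACC summed to 44738 ± 13887 CPM (SD, n = 8), rank 5 of 3427 seeds, and 98.5% of this came from the 3 guides. Reads without a miRNA name added 447 CPM to it and miR-3102-3p added 204 CPM. The mean viability score of all reads of the 5 members, weighted by CPM, was 50.3 ± 0.248% in het and 50.3 ± 0.377% in ko (SD, n = 4 each).

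The comparison of ko with het asks whether loss of the second Rubicon copy in 5XFAD mice goes with another amount of miR-29 in the RISC. The 3 guides summed to 54824 ± 4542 CPM in het and 40944 ± 18911 CPM in ko (SD, n = 4 each), and to 31755 ± 5458 CPM in the 3 ko libraries other than replicate 2. None of the 5 members passed the test across all 463 names (limma on log2(CPM + 1), adjusted p under 0.05), where 6 names or 1.30% did, each of them lower in ko. Without adjustment 0 members had a p under 0.05, against 7.34% of all names, and edgeR and DESeq2 on recovered reads called 0 members as well.

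miR-29b-3p had the largest fitted difference of the family, with a log2 value of -0.70 ± 0.33 (SE) for ko minus het, a 95% interval of -1.42 to 0.03 and an adjusted p of 0.613 by limma. The values were -0.43 (-0.98 to 0.12) for miR-29a-3p, -0.53 (-1.26 to 0.20) for miR-29c-3p and -0.59 (-1.35 to 0.17) for miR-29a-5p. The value of miR-29a-5p was -0.89 without ko replicate 4 and -0.28 without the 2 libraries over 5000000 reads. On the recovered reads the differences of miR-29a-3p, miR-29b-3p and miR-29c-3p were smaller, -0.23, -0.42 and -0.26 by edgeR and -0.22, -0.41 and -0.25 by DESeq2. In limma, miR-29c-5p had 0.12 (-0.42 to 0.66), and -0.05 without het replicate 2. Each limma interval includes 0, and those of the guides include a reduction of at least 0.98 on the log2 scale, so neither a clear decrease nor a stable level was shown at n = 4. The median of the libraries lay 0.22 lower on the log2 scale in ko (-0.22), and centred on it the guides had -0.21, -0.47 and -0.31 for miR-29a-3p, miR-29b-3p and miR-29c-3p.

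The guides' values depended on single ko libraries. Replicate 2 of ko was the deepest library and also the highest ko library for each guide. Without it the log2 values were -0.69 ± 0.20 for miR-29a-3p (limma adjusted p = 0.153), -1.05 ± 0.25 for miR-29b-3p (adjusted p = 0.0800) and -0.78 ± 0.32 for miR-29c-3p (adjusted p = 0.312). There the unadjusted p was under 0.05 for 3 of 5 members and for 12.5% of all names, and 0.864% of names passed after adjustment, none of them a member. Other omissions made the values smaller, to -0.30 for miR-29a-3p and -0.49 for miR-29b-3p without ko replicate 3 and to -0.27 for miR-29c-3p without ko replicate 1 (-0.37 without ko replicate 3). Over the 8 omissions the ranges were -0.69 to -0.30, -1.05 to -0.49 and -0.78 to -0.27.

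Libraries of both genotypes were tilted by base composition. In ko replicate 2, levels relative to the mean of its genotype fell with the GC content of the miRNA across 463 names (Spearman's rho = -0.46). Each library is part of the mean it is set against, so the tilts within a genotype are not independent. They rose with it in ko replicate 3 (rho = 0.52) and in het replicate 4 (rho = 0.42), and rho was -0.15 to -0.02 in the others. miR-29a-3p and miR-29b-3p were at their highest in ko replicate 2 (37449 and 21304 CPM) and at their lowest in ko replicate 3 (16818 and 6596 CPM), whereas miR-29c-3p was at its highest in het replicate 4 (11064 CPM). The leading reads of the guides hold 36.4% to 42.9% GC, below the median of 47.6% over names, and the part of base composition in these values was not tested.

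**Figure D5:**
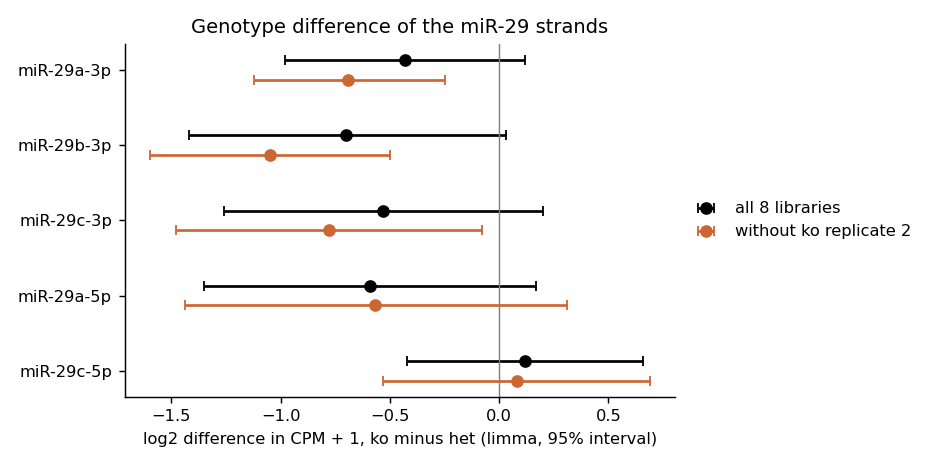
log2 difference of each member between ko and het (CPM + 1, limma) with its 95% interval, from all 8 libraries (black) and without ko replicate 2 (orange). With all libraries each interval crosses 0, and without ko replicate 2 the guides have -0.69, -1.05 and -0.78.

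Markers of other cells were set beside these values. The oligodendrocyte miRNAs miR-219a-5p and miR-338-3p had a sum that ran from 8093 to 14385 CPM in het and from 4360 to 8591 CPM in ko, with overlap. Both were detected in every library. The neural miRNAs covered 145125 to 189377 CPM in het and 145576 to 247446 CPM in ko. The blood and immune miRNAs (4 names) summed to 3610 to 5526 CPM in het and 3163 to 4994 CPM in ko. Most of this was miR-150-5p, at 1809 to 3424 CPM in het and 1902 to 4136 CPM in ko. Its partners were miR-451a (1214 to 1912 CPM in het, 531 to 1600 CPM in ko) and miR-142a-3p (355 to 625 CPM, 238 to 470 CPM). The last, miR-223-3p, had 22.7 to 114 CPM in het and 34.3 to 64.6 CPM in ko. The part of these cell types in the miR-29 values was not tested, and in brain tissue fewer cells of a type and fewer guides per cell cannot be told apart.

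Proportions within the family were compared between genotypes in the same way. None of 14 measures, the 5 ratios and 3 read features of each guide, passed an exact two-sided permutation test (70 arrangements) (lowest p = 0.143 and lowest adjusted p = 0.900, where the design allows p = 0.0286). The largest ratio difference was that of miR-29c-3p to miR-29c-5p, with 4.54 ± 0.38 in het and 3.89 ± 0.58 in ko on the log2 scale. The share of miR-29b-3p reads outside its main seed was 5.63 ± 1.53% in het and 6.73 ± 1.42% in ko, with overlapping libraries. That difference of 1.10 percentage points ran from 0.520 to 1.76 with 1 library left out.

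Across the 8 libraries the guides varied together, with Pearson's r of log2 levels of 0.93 for miR-29a-3p with miR-29b-3p, 0.82 for miR-29b-3p with miR-29c-3p and 0.71 for miR-29a-3p with miR-29c-3p. miR-29a-3p and its own passenger strand had r = 0.22, and miR-29c-3p and miR-29c-5p had r = 0.31, but miR-29c-3p with miR-29a-5p had r = 0.75. Among 458 other names, those closest to the sum of the guides were miR-30e-5p (r = 0.97), miR-451a, an erythroid miRNA (r = 0.91), and miR-434-5p (r = 0.88). miR-30e-5p had 6384 ± 474 CPM in het and 4855 ± 1615 CPM in ko (SD, n = 4 each). Its highest library was ko replicate 2 at 7129 CPM. These correlations describe 8 points that share depth, scaling and base composition, and ko replicate 2 was the highest ko library for the guides and for these 3 names.

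Other miRNAs that have been linked to Bace1 were taken as a list of 10, all of them measured, among them miR-107-3p, miR-298-5p, miR-328-3p and miR-195a-5p. None rose or fell past the adjusted threshold in limma or in edgeR, and none had an unadjusted limma p under 0.05, with a smallest adjusted p of 0.755. Since 1.30% of all names passed with adjustment and 7.34% without, a count of 0 among 10 is near that background. Their log2 values ran from -0.46 to 0.41 with a median of -0.13, beside a median of -0.09 over all 463 names. The list also holds miR-9-5p, which the paper singles out among miRNAs that differed significantly in this comparison. The paper tested single reads at p under 0.05, whereas a level here sums all reads of a name.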

How the data were processed

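Small RNAs of 8 Argonaute pulldowns (4 het, 4 ko, different mice, grouped by title) were analysed from a table of distinct reads. Per the labels, RNA of 19 to 35 nt was cut from a gel. The authors trimmed reads (Trim Galore in the submitters' processing notes, version not given in the sources used here), removed rare and artificial reads, named reads by BLAST, and deposited CPM, reads per 1000000 of a library. Their deposited viability score belongs to the 6mer seed and comes from a separate screen. No build for the table is given in the sources used here. Ligation and amplification favour some sequences, so levels of different names are levels of reads. Rare reads were removed on the total, which leaves fewer read variants in shallow libraries.

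Within 0.001 CPM plus 0.01% of the value, 100.0% of values above 0 were whole multiples of 1 read, which gave the depths (for 98.4% of values this tolerance is under 0.1 reads). Levels are sums of CPM per name. limma 3.58.1 (trend, robust; R 4.3.3) was run on log2(CPM + 1) of the names averaging 10 CPM or more, with Benjamini-Hochberg adjustment over 463 names. Such fold changes understate those of low names. edgeR 4.0.16 and DESeq2 1.42.0 on the recovered reads were alternatives and called 4 and 9 names. Ratios were tested by exact sign flips over 8 libraries, and genotype differences of ratios and read features by exact permutation. Scripts were tested on simulated data. Reads were placed on RefSeq hairpins from the longest exact match, with up to 3 added bases. Python 3.11.15, numpy 2.4.6, scipy 1.17.1, pandas 2.3.3 and matplotlib 3.10.9 were used. Reads carry no molecular identifiers, so intervals cover counting error only.

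The members and lists were chosen with earlier results of these data known. The names and reads given follow a written rule, the 5 members, both miR-29b 5p strands, the 3 leading reads of each guide and the leading read of each passenger strand, the 3 names closest to the guides, and the Bace1 list as counts. The extended, tailed and alternative-start reads and the comparisons between paralogs were added after the data were seen.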

Additional observations from a re-analysis of the deposited data

Results flagged for a closer look

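Of 38 groups of 4 libraries checked for one that stands apart (Dixon's test at the 95% level), 3 held one, where chance gives 1 in 20 or about 1.90. The level of miR-29a-3p in ko replicate 2 was 37449 CPM, against 19358 CPM in the nearest ko library. The level of miR-29c-5p in het replicate 2 was 252 CPM, against 398 CPM in the nearest het library. The mean read length of miR-29a-3p in het replicate 2 was 21.29 nt, against 21.44 nt in the nearest het library.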

How the results depend on the processing

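The order of the guides and of the arms kept its direction and its side of the threshold in all 12 alternatives of each ratio (other pseudocount, read and library choices), with log2 means of 1.75 to 1.96 (miR-29a-3p to miR-29c-3p), 0.91 to 1.03 (miR-29a-3p to miR-29b-3p), 0.81 to 0.98 (miR-29b-3p to miR-29c-3p), 5.63 to 5.99 (arms of miR-29a) and 4.11 to 5.15 (arms of miR-29c). The gap between the arm ratios of miR-29a and miR-29c was 0.57 with reads of the main seed only, in place of 1.64, and no longer passed. It was 1.44 to 1.80 with 1 library left out (alternatives added after seeing the data). No member was called between genotypes in any of 19 alternatives, where the lowest adjusted p was 0.0800 (miR-29b-3p without ko replicate 2; 0.269 by edgeR, an alternative added after seeing the data). The miRNAs called numbered 4 to 9 with 1 library left out.

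Some genotype differences changed sign, none of them past the threshold. Among them, the share of the exact RefSeq sequence in miR-29b-3p differed by -3.94 points with all 8 libraries. Without the 2 libraries over 5000000 reads its difference was -10.8 points. With 1 library left out at a time, ko minus het ran from -0.05 to 0.18 for miR-29c-5p, and as log2 ratios from -0.09 to 0.34 (miR-29a-3p to miR-29c-3p), -0.30 to 0.01 (miR-29b-3p to miR-29c-3p) and -0.12 to 0.52 (arms of miR-29a). It ran from -0.748 to 0.398 percentage points for the share of miR-29a-3p off its main seed, from -0.871 to 2.53, -8.45 to 0.0515 and -1.83 to 4.15 points for the share of the exact RefSeq sequence in miR-29a-3p, miR-29b-3p and miR-29c-3p, and from -0.00187 to 0.0616 nt and -0.0227 to 0.0916 nt for the read length of miR-29a-3p and miR-29c-3p. Without the 2 libraries over 5000000 reads, the ratio of miR-29a-3p to miR-29c-3p had -0.20 and that of the arms of miR-29a -0.43. The cause was not tested.

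Replicate numbers are shared by the genotypes but belong to different mice. Deviations of libraries with the same number had r of 0.04, 0.29, -0.18 and 0.25 over 463 names, and not every library correlated best with its own number, so the numbers were not taken to pair the libraries. With the number as a replicate block, 10 miRNAs were called in place of 6, and no member. Depth limits the passenger strands most, where miR-29c-5p had as few as 211 reads in a library.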
